A study of Mus musculus with 6 samples.

Results

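Phosphorylation of the α subunit of initiation factor eIF2 is the step that starts the integrated stress response, and the 7 genes described here set it up: the 4 kinases, their substrate, the constitutive phosphatase subunit and an inhibitor of one kinase. Their RNA was compared between IFNγR1KO and scrambled control B16 melanoma cells. The members were taken by symbol from the deposited gene tables through GENCODE release M21, and all 7 of them were found among the 55335 genes. All 7 also passed the filter on low counts, which kept 13642 genes.

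The scrambled control group held 3 cultures of B16 mouse melanoma cells (the BL6 subline in the study's methods) that carry lentiviral Cas9 with a guide against GFP, and their genotype is labelled WT. The IFNγR1KO group held 3 cultures that carry the same vector with a guide against exon 1 of Ifngr1, and their genotype is labelled IFNyR1KO. Both groups were puromycin-selected and kept in MEM with serum, L-glutamine, pyruvate, non-essential amino acids, vitamins and antibiotics, and no treatment is named for either. The study worked with single IFNγR1KO clones, and whether the 3 cultures come from the same clone is not labelled, so the p-values measure the spread between cultures of these lines and not between independent knockouts.

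When eIF2α is phosphorylated, eIF2 binds its exchange factor eIF2B tightly, little eIF2 is recharged with GTP, and most translation initiation slows while a few mRNAs with upstream open reading frames, Atf4 among them, are translated better. Each kinase senses another stress. HRI (Eif2ak1) responds to heme shortage and to signals from damaged mitochondria, PKR (Eif2ak2) to double-stranded RNA and is itself an interferon-stimulated gene, PERK (Eif2ak3) to unfolded proteins in the endoplasmic reticulum, and GCN2 (Eif2ak4) to uncharged tRNA and stalled ribosomes. CReP (Ppp1r15b) brings protein phosphatase 1 to eIF2α in unstressed cells, and IMPACT competes with GCN2 for its activator GCN1. The counts give amounts of RNA and do not report phosphorylation or protein.

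The windows from 250 bases before to 50 bases after the transcript start were read from RefSeq (GRCm38.p6), which held 6 windows for 5 of the 7 genes. The core of the interferon-stimulated response element (ISRE), GAAANNGAAA, was searched on both strands because PKR is an interferon-stimulated gene. It was found at 2 of the 5 genes, Eif2ak2 and Eif2s1, and at 3.99% of the 27025 genes with a window. The stretches that hold it are given 5′ to 3′ on the strand of the gene, with the matching bases in capitals.
Eif2ak2: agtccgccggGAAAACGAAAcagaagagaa
Eif2s1: cctggagcaaGAAACAGAAActtacctctc
The first lies at chr17:78882535-78882564 on the minus strand, with the match 19 to 28 bases into the RefSeq transcript, which starts at 78882572. In GENCODE it is in an exon of 1 of 4 transcripts, outside coding sequence. The second lies at chr12:78861850-78861879 on the plus strand, with the match from position -212 to -203 relative to the RefSeq start at 78862072. GENCODE begins the gene further upstream, at 78861819. This stretch lies in an exon of 1 of its 3 transcripts, outside coding sequence, and the other transcripts do not span it. Whether it lies before the start thus depends on the transcript. For comparison, 10 of 15 interferon-stimulated genes with a window held the ISRE core. The core of the element bound by ATF4 with a C/EBP partner, TGATGNAA, which was searched in the same way, was in none of the members' windows, in windows of 3 of 7 genes downstream of eIF2α phosphorylation and at 4.51% of all genes with a window. A match describes letters only and does not show binding.

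The libraries held 6698956 to 10579788 counts on genes, fewer in each IFNγR1KO than in each scrambled control library. In CPM, counts scaled to a common total with TMM factors, 1 count was worth 0.0966 to 0.142. Of the 7 melanocyte lineage markers, all were counted in every library, with summed levels of 31716 to 34659 CPM in scrambled control and 27898 to 32830 CPM in IFNγR1KO cells, and none passed the test between groups. The markers of immune, endothelial, fibroblast, keratinocyte and erythroid cells, summed within each cell type, stayed at or under 9.28 CPM in every library. The T cell marker Cd3e had no count. The immune marker Csf1r was counted in every library, at 6.73 to 9.28 CPM in scrambled control and 5.97 to 8.40 CPM in IFNγR1KO cells. So was the fibroblast marker Pdgfra, at 3.18 to 4.13 and 1.76 to 2.42 CPM, and neither passed the test between groups. Ifngr1, the gene targeted at exon 1, was still counted in IFNγR1KO libraries, at 11.4 to 11.5 CPM against 14.3 to 16.7 CPM in scrambled control, groups that did not overlap but did not pass the test (log2 fold change -0.47, adjusted p = 0.0729 by edgeR). A poly(A) read count over the whole gene does not check a small deletion.

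In each group 1 library stood apart by transcript length, scrambled control replicate 3 and IFNγR1KO replicate 12. Genes with transcripts under 1000 bases lay at a median of -0.27 and -0.25 log2 units from their group's mean in these libraries, and genes with transcripts over 5000 bases lay at 0.19 and 0.16. In the other 4 libraries the short genes lay above the group mean, by 0.074 to 0.19, and the long genes below it. The trend was not a difference between the groups, since the median log2 fold change was 0.012 for short and -0.023 for long genes. Results are therefore also given without these libraries and with a term for them in the fit, both chosen after the data were seen. For Ifngr1 the adjusted p was 0.112 without them and 0.0164 with the term, the 1 of 11 alternatives other than leaving out 1 library in which it was called.

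Of the 7 genes, 2 passed an adjusted p of 0.05 between IFNγR1KO and scrambled control cells, against 15.3% of all genes tested. Eif2ak3 was the member that rose and Eif2ak2 the member that fell, where 7.73% of all genes were called higher and 7.62% lower. None was a DEG by the study's added limit of 1 on the absolute log2 fold change, which 5.2% of genes met. For 3 of the 7, Eif2ak1, Eif2ak2 and Eif2ak3, the CPM ranges of both groups were apart, against 32.6% of all genes. The median log2 fold change of the 7 was -0.059, and that of all genes was -0.0015. These are bulk cultures, in which fewer cells expressing a gene and less RNA per cell cannot be told apart.

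**Figure D1:**
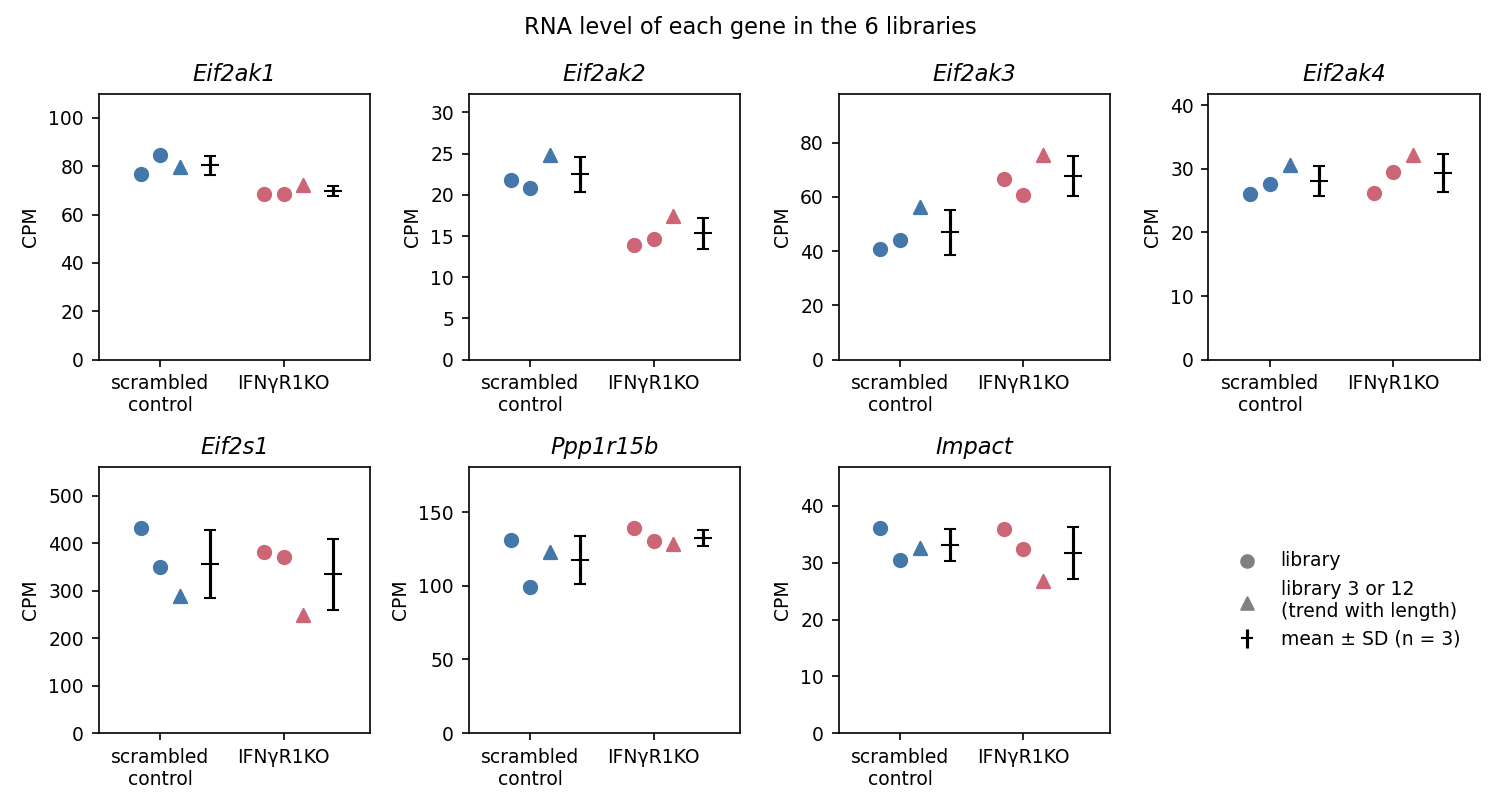
CPM of each gene (y axes, from 0) in the 3 scrambled control (blue) and 3 IFNγR1KO (red) libraries, with the mean and SD beside them and triangles for the libraries that trend with transcript length. Every IFNγR1KO library lies below every scrambled control library for Eif2ak2 and Eif2ak1 and above them for Eif2ak3, while the groups overlap for the other genes.

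Eif2ak2 (ENSMUSG00000024079.4) encodes PKR and lies on the minus strand of chromosome 17 of GRCm38, from 78852564 to 78882573. Exons of Gm26637 and n-R5s29 on the other strand cover 4.32% of its exonic bases. The gene n-R5s29 had 0 to 2 counts per library, no level was obtained for Gm26637, and their part was not tested. The values that follow are those of Eif2ak2. It was at 21.8, 20.8 and 24.8 CPM in scrambled control replicates 1, 2 and 3 (201, 209 and 257 counts). It was at 13.9, 14.6 and 17.4 CPM in IFNγR1KO replicates 10, 11 and 12 (98, 108 and 124 counts). The lowest scrambled control library was thus above the highest IFNγR1KO library, and replicates 3 and 12 were the highest of their groups. The means were 22.5 ± 2.10 and 15.3 ± 1.86 CPM (SD, n = 3 each), and Eif2ak2 fell by 0.55 on the log2 scale (SE 0.16, adjusted p = 0.0376 by edgeR's quasi-likelihood fit over all genes tested). The 95% interval ran from 0.534 to 0.871 times the scrambled control level. The two-sided exact permutation test over libraries gave p = 0.1, the smallest that 3 libraries against 3 allow. The direction held when any single library was left out, and the call did not: the adjusted p was 0.0690 without scrambled control replicate 1 and 0.0690 without replicate 2. It was 0.103 without scrambled control replicate 3, 0.156 without IFNγR1KO replicate 10, 0.162 without replicate 11 and 0.0157 without replicate 12. With a term for replicates 3 and 12 the log2 fold change was -0.55 (adjusted p = 0.00218), in a fit that called 35.1% of all genes, and without both libraries it was -0.58 (adjusted p = 0.0212), where 22.3% were called.

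The list of interferon-stimulated genes puts PKR beside others of its kind. Of its 25 genes, 23 were analysed here. Isg15 and Mx1 were left out because their versioned GENCODE identifiers matched none in the deposited tables, so their levels are not known here. Of the 19 genes tested, 2 rose, 2 fell and 15 did not pass the test, with a median log2 fold change of -0.074. Beside them, 7.73% of all genes were called higher and 7.62% lower. Irf1, the transcription factor that IFN-γ induces, fell by 0.59 (adjusted p = 0.0203), a size near that of Eif2ak2. Irf1 passed without any 1 library except scrambled control replicate 2, IFNγR1KO replicate 10 or replicate 11, where the adjusted p was 0.0667, 0.109 and 0.0940. Zbp1, a sensor of Z-form nucleic acid, had 24, 37 and 29 counts in scrambled control and 0, 1 and 6 in IFNγR1KO libraries (adjusted p = 0.00367). Ifit1, which binds viral RNA lacking cap methylation, was in the other direction, at 1.85, 2.59 and 3.48 CPM in scrambled control against 16.2, 13.1 and 9.28 CPM in IFNγR1KO libraries (adjusted p = 0.000286). Mx2, of the dynamin-like GTPase family, is annotated in GENCODE as a polymorphic pseudogene. It had 6 to 11 counts in scrambled control and 12 to 19 in IFNγR1KO libraries (adjusted p = 0.0484 by edgeR). With 1 library left out its adjusted p was above 0.05 except without IFNγR1KO replicate 12. It was 0.0540, 0.127 and 0.161 without scrambled control replicates 1, 2 and 3, and 0.125 and 0.205 without IFNγR1KO replicates 10 and 11. Of the 11 alternatives other than leaving out 1 library, 5 called Mx2. DESeq2 with the same filter did not (adjusted p = 0.0923), and there 1 gene of the list was called higher and 2 lower. The 4 called genes thus lay on both sides, and Eif2ak2 was on the side of Irf1 and Zbp1.

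Eif2ak3 (ENSMUSG00000031668.14) encodes PERK and lies on the plus strand of chromosome 6, from 70844515 to 70905245. It was at 40.7, 44.0 and 56.4 CPM in scrambled control replicates 1, 2 and 3 (375, 442 and 584 counts). It was at 66.5, 60.8 and 75.5 CPM in IFNγR1KO replicates 10, 11 and 12 (468, 449 and 537 counts). Here too the groups did not overlap, and replicates 3 and 12 were the highest of their groups. The means were 47.0 ± 8.30 and 67.6 ± 7.40 CPM (SD, n = 3 each), and Eif2ak3 rose by 0.52 on the log2 scale (SE 0.16, adjusted p = 0.0400 by edgeR). The 95% interval ran from 1.14 to 1.82 times the scrambled control level, and the exact permutation test gave p = 0.1. Leaving out single libraries kept the direction, but the call held only without scrambled control replicate 3. The adjusted p was 0.134 without scrambled control replicate 1, 0.148 without replicate 2 and 0.00866 without replicate 3. It was 0.102 without IFNγR1KO replicate 10, 0.0700 without replicate 11 and 0.0632 without replicate 12. With the term for replicates 3 and 12 the log2 fold change was 0.53 (adjusted p = 0.000213), and without both it was 0.59 (adjusted p = 0.0027). These fits called 35.1% and 22.3% of all genes. Of the exonic bases of Eif2ak3, 8.05% lie under exons of Gm43292 on the other strand, which had means of 9.23 and 12.0 CPM in scrambled control and IFNγR1KO cells, and its part in the difference was not tested.

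BiP (Hspa5), the chaperone that keeps PERK inactive while it is not needed for unfolded proteins, was at 2878, 2532 and 2294 CPM in scrambled control replicates 1, 2 and 3. In IFNγR1KO replicates 10, 11 and 12 it was at 6186, 4759 and 3844 CPM, so the groups did not overlap. It rose by 0.94 on the log2 scale (adjusted p = 0.00808 by edgeR), and the adjusted p was 0.0510 without scrambled control replicate 2. It was the 1 gene called among the 12 listed regulators of the kinases, where 15.3% of all genes were called. Dnajc3, a co-chaperone that inhibits PERK and PKR, had a log2 fold change of 0.36 (adjusted p = 0.112). The mitochondrial relay to HRI, Oma1 and Dele1, had log2 fold changes of 0.089 and 0.070, and the PKR partners Prkra, Tarbp2 and Adar had 0.17, 0.0010 and 0.075. The GCN2 activator GCN1 (Gcn1l1 in the annotation) was at -0.12, and the ribosomal stalk genes Rplp0, Rplp1 and Rplp2 were at 0.25, 0.097 and 0.090.

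Eif2ak1 (ENSMUSG00000029613.15), encoding HRI, lies on the plus strand of chromosome 5 from 143817788 to 143904251. It was at 76.6, 84.7 and 79.6 CPM in scrambled control replicates 1, 2 and 3, and at 68.5, 68.4 and 72.1 CPM in IFNγR1KO replicates 10, 11 and 12. All IFNγR1KO libraries were lower, by a log2 fold change of -0.21 (SE 0.12, adjusted p = 0.311 by edgeR), which did not pass the test. The 95% interval ran from 0.719 to 1.05 times the scrambled control level. The log2 fold change stayed between -0.24 and -0.15 in every alternative fit that tested it, and with the term for replicates 3 and 12 the adjusted p was 0.0689. Exons of Aimp2 and Ankrd61 on the other strand cover 11.6% of its exonic bases, and Aimp2 was at 70.7 and 61.2 CPM in the groups. The part of these genes in the values of Eif2ak1 was not tested.

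Eif2ak4 (ENSMUSG00000005102.13), encoding GCN2, lies on the plus strand of chromosome 2 from 118388618 to 118475234, with no exon of another gene over its own. It was at 26.1, 27.6 and 30.6 CPM in scrambled control replicates 1, 2 and 3, and at 26.3, 29.5 and 32.2 CPM in IFNγR1KO replicates 10, 11 and 12. The ranges nearly coincided. The log2 fold change was 0.062 (adjusted p = 0.828 by edgeR), with a 95% interval of 0.837 to 1.30 times the scrambled control level, and it was -0.013 without IFNγR1KO replicate 12.

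**Figure D2:**
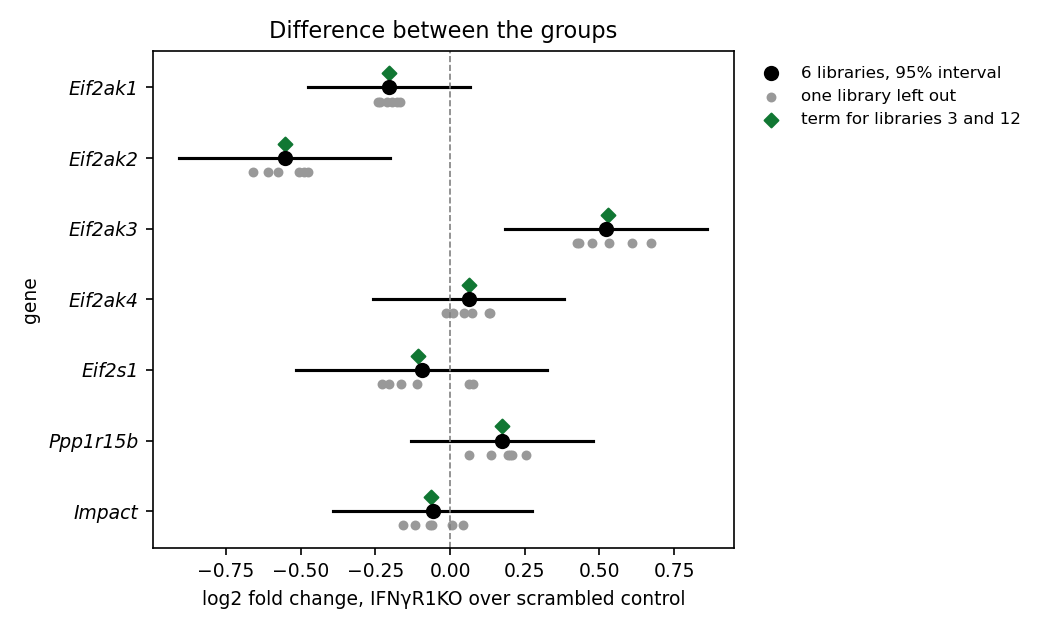
Log2 fold change of IFNγR1KO over scrambled control for each gene (x axis), with black points and 95% intervals for all 6 libraries, grey points with 1 library left out and green diamonds with a term for replicates 3 and 12. The intervals of Eif2ak2 (0.534 to 0.871 times the scrambled control level) and Eif2ak3 (1.14 to 1.82 times) lie on opposite sides of 0, and the other intervals include 0.

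Impact (ENSMUSG00000024423.6), the inhibitor of GCN2, lies on the plus strand of chromosome 18 from 12955852 to 12992950. It was at 36.0, 30.4 and 32.7 CPM in scrambled control replicates 1, 2 and 3, and at 35.9, 32.4 and 26.9 CPM in IFNγR1KO replicates 10, 11 and 12. The groups overlapped, with replicate 12 the lowest library. The log2 fold change was -0.059 (adjusted p = 0.846 by edgeR), with a 95% interval of 0.763 to 1.21 times, and its sign turned without scrambled control replicate 1 (0.0056), without IFNγR1KO replicate 12 (0.045) and without both replicates 3 and 12 (0.038). Per exonic length, Impact was 1.72 ± 0.252 times Eif2ak4 in scrambled control and 1.60 ± 0.388 times in IFNγR1KO libraries (SD, n = 3 each), ranges that overlap.

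Eif2s1 (ENSMUSG00000021116.10) encodes eIF2α, the substrate of all 4 kinases, and lies on the plus strand of chromosome 12 from 78861819 to 78887010. It was at 431, 350 and 289 CPM in scrambled control replicates 1, 2 and 3, and at 382, 371 and 249 CPM in IFNγR1KO replicates 10, 11 and 12. The spread was wide in both groups, 20.0% and 22.1% of the mean, and replicates 3 and 12 were the lowest of their groups, the reverse of the kinases PKR, PERK and GCN2. The log2 fold change was -0.094 (SE 0.19, adjusted p = 0.801 by edgeR), with a 95% interval of 0.700 to 1.25 times the scrambled control level. Its sign turned without scrambled control replicate 1 (0.062) and without IFNγR1KO replicate 12 (0.076). With the term for replicates 3 and 12 it was -0.11 (adjusted p = 0.361).

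Of 8 genes listed as partners of eIF2α in eIF2 and eIF2B, 7 were tested, 1 rose and 6 did not pass, with a median log2 fold change of 0.092. This is near the 15.3% of all genes called and tells nothing particular of the list. Eif2s2, the β subunit of eIF2, was the gene that rose, from 488, 392 and 362 CPM in scrambled control to 780, 685 and 511 CPM in IFNγR1KO libraries (log2 fold change 0.67, adjusted p = 0.0273 by edgeR). It passed without scrambled control replicate 1 and without IFNγR1KO replicate 12, and otherwise the adjusted p was 0.115 and 0.0575 without scrambled control replicates 2 and 3 and 0.132 and 0.104 without IFNγR1KO replicates 10 and 11. The γ subunit gene Eif2s3x had a log2 fold change of -0.046 and Eif2b5, the catalytic subunit of eIF2B, of 0.11. Eif2b1, a regulatory subunit of eIF2B, had -0.38 (adjusted p = 0.105), with no overlap between the groups. Among 7 other factors of start codon selection and initiator tRNA delivery, Eif5, which stimulates GTP hydrolysis by eIF2, rose by 0.58 (adjusted p = 0.0182) and 6 did not pass, again near the share of all genes. Without scrambled control replicate 2, IFNγR1KO replicate 10 or replicate 11 the adjusted p of Eif5 was 0.0762, 0.0988 and 0.0822.

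Ppp1r15b (ENSMUSG00000046062.5), encoding the constitutive phosphatase subunit CReP, lies on the plus strand of chromosome 1 from 133131143 to 133139783. It was at 130.8, 99.1 and 122.9 CPM in scrambled control replicates 1, 2 and 3, and at 138.9, 130.5 and 128.5 CPM in IFNγR1KO replicates 10, 11 and 12. The groups overlapped, since scrambled control replicate 1 lay above IFNγR1KO replicates 11 and 12. The log2 fold change was 0.17 (SE 0.14, adjusted p = 0.465 by edgeR), with a 95% interval of 0.912 to 1.39 times. Exons of Gm26616 on the other strand cover 11.4% of its exonic bases, and Gm26616 was at 20.9 and 30.0 CPM in the groups, a part that was not tested. The catalytic subunits of protein phosphatase 1, Ppp1ca, Ppp1cb and Ppp1cc, had log2 fold changes of 0.065, 0.24 and -0.19 and did not pass.

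The inducible counterpart of CReP, GADD34 (Ppp1r15a), which ATF4 and CHOP switch on, was at 14.9, 17.7 and 13.4 CPM in scrambled control and at 124.9, 123.3 and 130.3 CPM in IFNγR1KO libraries, and rose by 3.04 on the log2 scale (adjusted p = 1.4e-07 by edgeR). On the scale of CPM per kilobase of exons, Ppp1r15a made up 17.8%, 25.4% and 17.2% of the RNA of both phosphatase subunits in scrambled control replicates 1, 2 and 3. In IFNγR1KO replicates 10, 11 and 12 it made up 63.1%, 64.3% and 65.9%. The constitutive gene thus held most of this RNA in every scrambled control library and less than the inducible gene in every IFNγR1KO library. This share was computed after the values of both genes were seen. All 7 genes listed as outputs of eIF2α phosphorylation were called higher, where 7.73% of all genes tested were. Their log2 fold changes ran from 1.13 for Atf4 to 3.49 for Trib3, with 3.13 for Ddit3, which encodes CHOP. The list was chosen with earlier results of these data known, so this count is a description and not a test. The 7 upstream genes stayed within -0.55 and 0.52.

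**Figure D3:**
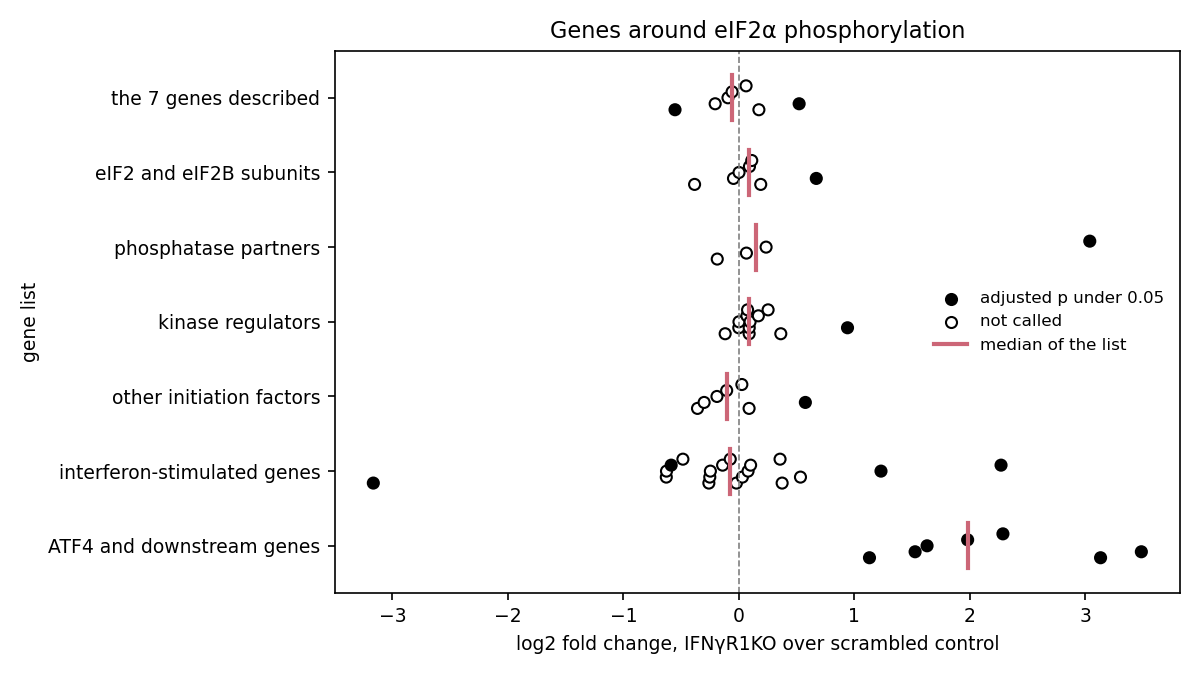
Log2 fold change of IFNγR1KO over scrambled control (x axis) of the tested genes of each list (rows), filled where the adjusted p was under 0.05, with the list's median as a red line. The 7 genes described here lie between -0.55 and 0.52 with a median of -0.059, and the 7 output genes lie between 1.13 and 3.49.

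Levels of different genes were compared per length, as CPM per kilobase of the union of a gene's exons. In scrambled control cells Eif2s1 was the highest, at 72.1 ± 14.4 CPM per kilobase (SD, n = 3), followed by Ppp1r15b at 21.02 ± 2.95, Eif2ak1 at 14.2 ± 0.716, Eif2ak3 at 7.81 ± 1.38, Impact at 6.44 ± 0.549, Eif2ak2 at 4.40 ± 0.411 and Eif2ak4 at 3.77 ± 0.313. The ranges over libraries overlapped for Eif2ak3 and Impact and for Eif2ak2 and Eif2ak4, and the other neighbours in this order did not overlap. Eif2s1 was thus 19.1 times the level of the lowest gene. In IFNγR1KO cells Eif2s1 was at 67.5 ± 14.9, Ppp1r15b at 23.7 ± 0.993, Eif2ak1 at 12.3 ± 0.374, Eif2ak3 at 11.2 ± 1.23, Impact at 6.19 ± 0.893, Eif2ak4 at 3.93 ± 0.397 and Eif2ak2 at 3.00 ± 0.363 CPM per kilobase. Here the overlapping neighbours were Eif2ak1 and Eif2ak3, and Eif2ak2 was the lowest. HRI RNA was 1.81 times PERK RNA in scrambled control, and 1.10 times in IFNγR1KO cells. With the longest transcript as the length, 5 of the 7 genes kept their rank in scrambled control and Eif2ak2 and Eif2ak4 changed places.

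**Figure D4:**
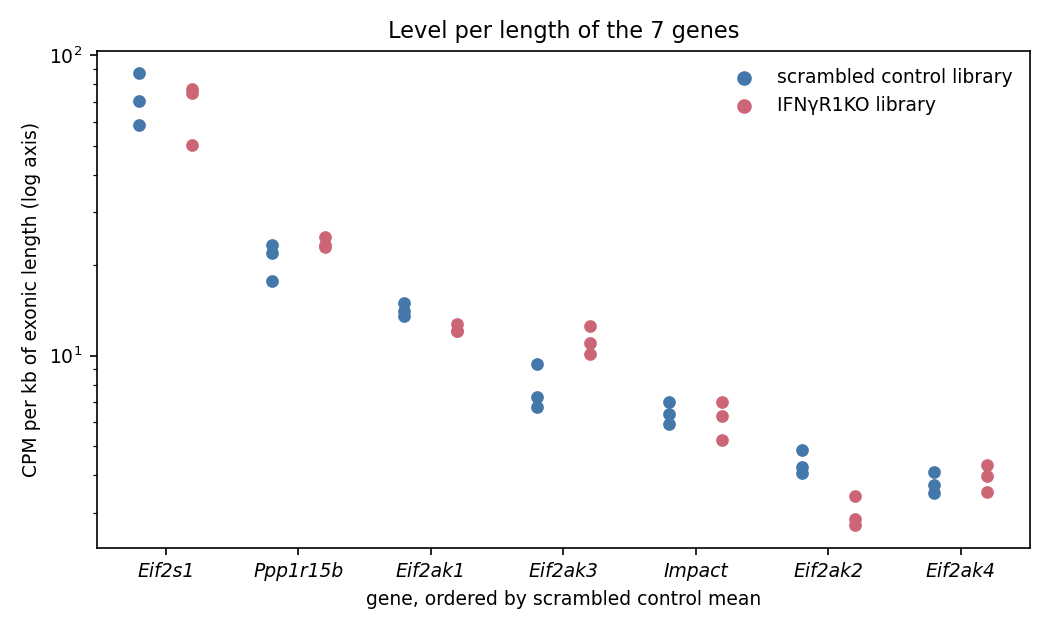
CPM per kilobase of exons (y axis, log scale) of the 7 genes in every library, ordered by the scrambled control mean. Eif2s1 lies highest in both groups, and Eif2ak3 approaches Eif2ak1 in the IFNγR1KO libraries (11.2 against 12.3). Eif2ak2 lies under Eif2ak4 there (3.00 against 3.93), while in scrambled control their ranges overlap and their order depends on the length used.

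The summed level of the 4 kinases was 30.1 ± 2.17 CPM per kilobase in scrambled control and 30.4 ± 2.20 in IFNγR1KO cells (SD, n = 3 each), with overlapping ranges. The share of each kinase in this sum was then taken within each library, so that scaling between libraries has no part in it. PERK made up 24.1%, 24.3% and 28.9% of this sum in scrambled control replicates 1, 2 and 3, and 37.6%, 34.8% and 38.0% in IFNγR1KO replicates 10, 11 and 12. PKR made up 13.6% to 15.2% in scrambled control, and 9.28%, 9.87% and 10.3% in IFNγR1KO replicates 10, 11 and 12. HRI made up 48.2%, 49.8% and 43.4% in scrambled control, and 41.1%, 41.6% and 38.6% in IFNγR1KO libraries. The shares of these 3 kinases did not overlap between the groups, PERK being higher and PKR and HRI lower in every IFNγR1KO library, while that of GCN2 stayed between 12.0% and 13.7% in all 6. The 4 shares add up to a whole and are not independent of each other. For HRI the gene's own difference did not pass the test (adjusted p = 0.311 by edgeR). Groups apart are common in these data, as the CPM ranges did not overlap for 32.6% of all genes tested. Eif2s1 was 1.80 to 3.11 times the summed kinases in scrambled control and 1.53 to 2.63 times in IFNγR1KO libraries, and Ppp1r15b was 0.251 to 0.376 and 0.311 to 0.457 times Eif2s1, both overlapping.

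**Figure D5:**
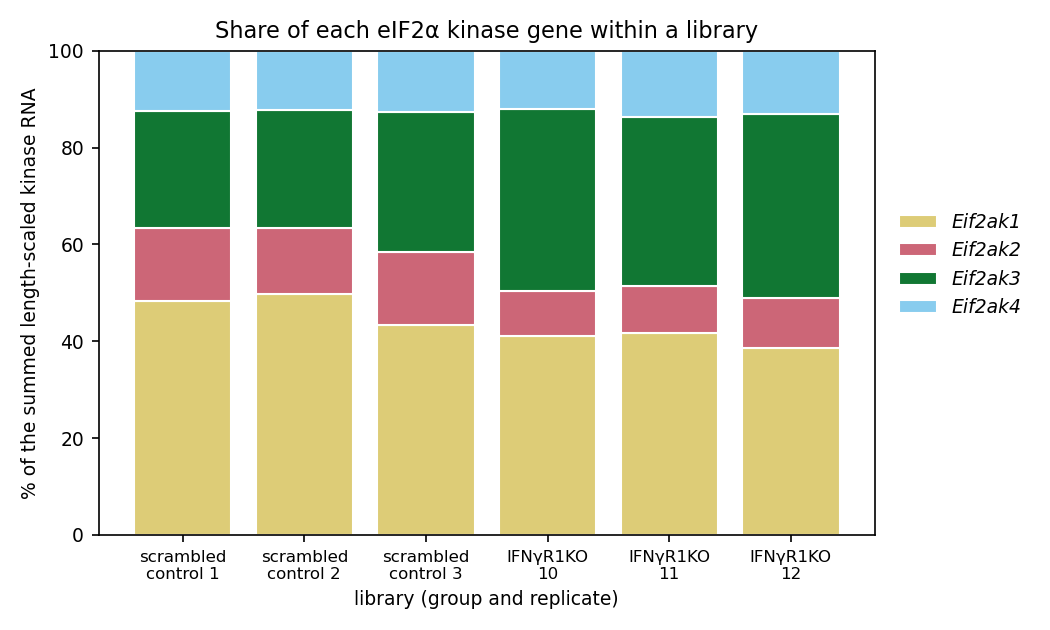
Share of each kinase gene in the summed CPM per kilobase of the 4 kinases (y axis, percent) in each of the 6 libraries (x axis). The green part, Eif2ak3, takes 24.1% to 28.9% in scrambled control and 34.8% to 38.0% in IFNγR1KO libraries, while the red part, Eif2ak2, takes 13.6% to 15.2% and 9.28% to 10.3%.

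Genes whose pattern over the 6 libraries was closest to the called kinases were found by the root mean square distance between log2 CPM profiles, each centred on its own mean, among 9625 genes with a mean of at least 10 CPM. For Eif2ak2 they were Ryk, at a distance of 0.026, Hira at 0.028 and Zfp367 at 0.034, with log2 fold changes of -0.57, -0.56 and -0.52. For Eif2ak3 they were Bhlhb9, at 0.052, Mbnl2 at 0.054 and Foxo3 at 0.054, with log2 fold changes of 0.47, 0.44 and 0.53. With 6 libraries in 2 groups, such a distance mostly describes the difference between the groups.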

How the data were processed

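Poly(A)-selected RNA of 3 scrambled control and 3 IFNγR1KO cultures was sequenced from both ends. Reads were mapped by the authors to GRCm38 (STAR 2.7.5a), and the deposited tables, 1 per library, hold unnormalized counts made by htseq-count (HTSeq 0.11.2). Their summary lines, which name no gene, were left out: reads on no feature came to 46.9% to 47.7% and ambiguous reads to 1.57% to 1.85% of all entries. The annotation release and strand setting are not given in the sources used here. Of 55335 identifiers, 54587 were found in GENCODE release M21. The counts were analysed with edgeR 4.0.16 in R 4.3.3: filterByExpr (minimum count 10, minimum total 15), TMM factors and quasi-likelihood F-tests, with p adjusted by Benjamini-Hochberg over every gene tested. DESeq2 1.42.0, limma 3.58.1 (voom), other normalizations and filters, thinning to the smallest total and leaving out each library were the alternatives. The tests were tested on simulated counts. Members and lists were chosen with earlier results of these data known. Named were the members, up to 4 called genes per list and direction, Ifngr1, Ppp1r15a, Atf4 and Ddit3, and the 3 genes nearest in pattern to each called member. Further genes given by value to describe a list were chosen after their values were seen. Protein sequences were not used here, so the planned identity between proteins was not computed.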

Additional observations from a re-analysis of the deposited data

How the results depend on the processing

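No paired analysis was possible because the groups share no replicate number. The call of Eif2ak3 held under all 11 alternatives other than leaving out 1 library, and that of Eif2ak2 under 9 of 11. With 1 library left out, each of these calls held in 1 of 6 fits only. With total counts only and with thinned libraries, 0 members were called lower (adjusted p of Eif2ak2 0.0842 and 0.0509, with log2 fold changes of -0.50 and -0.55). In the fits that left out 1 library, 0 to 1 members were called higher and 0 to 1 lower, and among all genes 1028 to 2824 were called, 535 to 1372 higher and 457 to 1452 lower, with 565 to 886 DEGs. These log2 fold changes ran from -0.013 to 0.13 for Eif2ak4, from -0.23 to 0.076 for Eif2s1 and from -0.16 to 0.045 for Impact. A term for the length-trend libraries gave 4783 genes, 2243 higher and 2540 lower, against 2093, 1054 and 1039 without it, and leaving out both gave 1617 lower and a log2 fold change of 0.038 for Impact. Total counts only moved the share of called genes that were higher from 50.4% to 60.9%. At this depth and spread, the 95% intervals still hold 0.700 times the scrambled control level for Eif2s1 and 1.39 times for Ppp1r15b.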
